A study of Homo sapiens with 6 samples.

Results

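The genes described here make or regulate cholesterol and fatty acids in human colorectal cancer cells. They were chosen by symbol: 31 genes, of which 28 had at least 1 probe set (a group of short probes that gives 1 signal for a transcript) annotated to that symbol alone, 61 probe sets in all among the 54613 on the array. The sterol branch had 16 measured genes, the fatty acid branch 7, and 5 were regulators of both or a sterol carrier. CYP51A1 and FADS1 were read only by probe sets that also carry a second symbol, and FDFT1 was not analysed here. A filter on low signal, which took out the dimmest 40% of probe sets by their mean over all arrays, kept 60 of the 61 and at least 1 for each of the 28 genes.

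The 2 cell populations were M5, cells with a raised capacity to spread to the liver that had been selected in vivo from SW480, and SW480 itself, the parental colorectal cancer line. Both were grown without a further treatment in RPMI medium with fetal bovine serum, penicillin and streptomycin, and each was measured on 3 arrays of biological replicates. The labels do not say whether M5 is 1 clone or which animal was used. In bulk RNA, a lower signal from fewer expressing cells and one from less RNA per cell cannot be told apart. Signals are given as quantile-normalised array intensities on a linear scale, and differences as M5 minus SW480 on the log2 scale after adding a pseudocount of 1.7.

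Cholesterol is built from acetyl-CoA through mevalonate and squalene, and long-chain fatty acids from the same precursor through malonyl-CoA. Both branches are switched on by the SREBP transcription factors, which stay in the endoplasmic reticulum with SCAP and INSIG proteins while sterols are plentiful and are cut free when sterols run low. SREBP-2, the product of SREBF2, acts mainly on the sterol genes, and SREBP-1c, from SREBF1, mainly on the fatty acid genes. Serum brings lipoprotein cholesterol into a culture, so the level of sterol gene transcripts is known to depend on culture conditions as well as on cell type.

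SREBPs bind sterol response elements together with NF-Y, which binds CCAAT boxes, and Sp1, which binds GC boxes. RefSeq promoters (GRCh38.p14, the 250 bases before the first listed start) were matched by symbol for 27 of the 31 genes, all but ACAT2, FDFT1, SQLE and FASN. The stretches below are those of SREBF2, the only member with the sterol response element core TCACNCCAC in this window, and of 4 genes whose M5 difference changed by over 1 log2 unit between arrays, as described further on. Each is 110 bases, 5′ to 3′ on the gene's strand, with CCAAT boxes (ATTGG where they lie on the other strand) and the sterol response element core in capitals.
SREBF2 (chr22:41832972-41833081, plus strand): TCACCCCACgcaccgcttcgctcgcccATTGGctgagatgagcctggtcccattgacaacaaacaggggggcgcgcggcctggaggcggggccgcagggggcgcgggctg
HMGCS1 (chr5:43313458-43313567, minus strand): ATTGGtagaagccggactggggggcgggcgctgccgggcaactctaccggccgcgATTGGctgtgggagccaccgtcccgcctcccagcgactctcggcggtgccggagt
EBP (chrX:48521698-48521807, plus strand): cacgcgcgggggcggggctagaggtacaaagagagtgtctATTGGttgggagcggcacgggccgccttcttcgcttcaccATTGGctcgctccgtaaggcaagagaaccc
INSIG1 (chr7:155297708-155297817, plus strand): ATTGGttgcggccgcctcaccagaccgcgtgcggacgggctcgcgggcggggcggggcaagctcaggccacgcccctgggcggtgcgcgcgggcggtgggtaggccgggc
STARD4 (chr5:111512587-111512696, minus strand): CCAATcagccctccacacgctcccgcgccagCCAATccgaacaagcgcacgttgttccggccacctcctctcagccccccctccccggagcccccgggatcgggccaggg

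In both strands of these windows, the CCAAT box was present in 12 of 15 sterol branch promoters (80.0%), in 3 of 7 fatty acid branch promoters (42.9%) and in 34.8% of the 11386 promoters found for all genes in the fit. The Sp1 box GGGCGG was present in 14 of the 15 (93.3%), 6 of the 7 (85.7%) and 64.0%. The sterol response element core was in 0 of the 15, 0 of the 7 and 0.861%, and in SREBF2 it lay 133 bases before the start. Median GC content was 66.4%, 68.0% and 64.4% in the same order. The 15 and 7 promoters are not the measured sets of genes: they include CYP51A1 and FADS1 and lack ACAT2, SQLE and FASN. These shares describe letters in the window and no binding was measured. Only exact matches to TCACNCCAC, with any base at N, were counted, so elements of a differing sequence would be missed. In SREBF2 the core and the CCAAT box do not overlap.

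**Figure D1:**
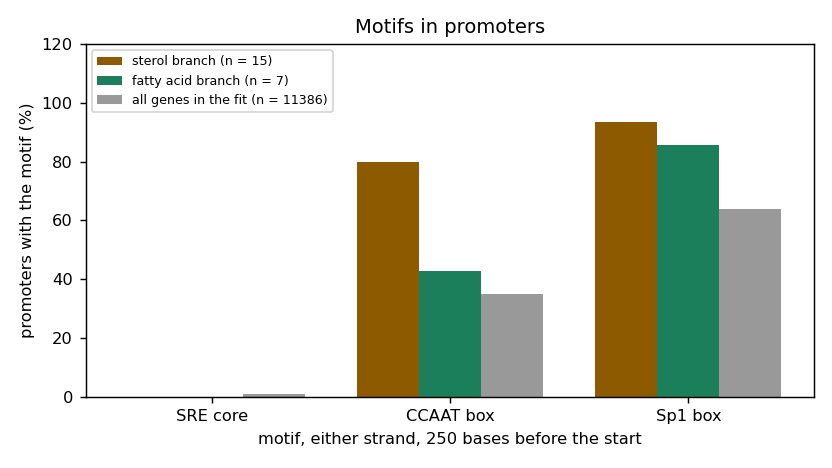
Share of promoters (%, vertical axis) with each motif (horizontal axis) within 250 bases before the start, on either strand, in the sterol branch (15 promoters), the fatty acid branch (7) and all genes in the fit (11386). The CCAAT box was present in 80.0% of the sterol branch promoters and 42.9% of the fatty acid branch promoters.

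The arrays differed in ways that bear on every value below. The 2% trimmed mean intensity was 26.98, 65.27 and 67.08 on M5 replicates 1, 2 and 3, and 20.95, 53.41 and 86.41 on SW480 replicates 1, 2 and 3. Replicate 1 of each population was therefore the dimmest array of its group, and these 2 arrays are called the dimmer arrays and the other 4 the brighter arrays. M5 replicates 2 and 3 correlated at 0.995 over the 3277 brightest probe sets, against 0.897 to 0.958 for the other pairs, so their mean stood for 1 sample wherever an M5 mean and SD are given (n = 2). Over the same probe sets, M5 replicate 1 correlated at 0.955 with SW480 replicate 1, the other dimmer array. Its correlations with M5 replicates 2 and 3 were 0.935 and 0.933. Over all kept probe sets these 3 values were 0.895, 0.895 and 0.893. On that measure M5 replicates 2 and 3 correlated at 0.943 and SW480 replicates 2 and 3 at 0.944. The M5 pair thus stood apart only over the brightest probe sets, and the labels call all arrays biological replicates. An 18S ribosomal RNA control was 3581.8, 208.6 and 234.1 on the M5 arrays and 2823.9, 4163.4 and 96.3 on the SW480 arrays. The 3′ to 5′ signal ratio of the GAPDH control, a measure of RNA integrity, was 1.03 to 1.08 on M5 and 1.04 to 1.15 on SW480 arrays, and that of ACTB was 1.92 to 2.19 on M5 and 1.64 to 2.11 on SW480 arrays, lowest on SW480 replicate 1. Of 10 colorectal epithelial markers, EPCAM (2240 to 2920 on M5, 2180 to 2560 on SW480 arrays) and KRT18 (4520 to 4870 on M5, 4020 to 5180 on SW480 arrays) were bright, while CDX1 stayed under 10 on every array and CDX2 reached 13.4 at most. The summed level of the 10 was 11300 to 12300 on M5 and 9120 to 13100 on SW480 arrays. The sums of 5 adipocyte markers were 21.8 to 52.1 on M5 and 21.5 to 44.6 on SW480 arrays, with PLIN1, LEP and LPL under 10 on every array. CIDEC reached 24.7 and ADIPOQ 13.2, both on M5 replicate 1. The sums of 7 hepatocyte markers were 94.1 to 233 and 102 to 347, again M5 before SW480, with ALB at 17.1 or less on every array. SERPINA1 was brighter, at 91.9, 39.5 and 62.8 on the M5 arrays and 235, 53.1 and 49.2 on the SW480 arrays. CYP2E1 reached 56.2 on M5 replicate 1. Fibroblast markers (4) summed to 77.9 to 121 and 89.9 to 141, and the 2 leukocyte markers with a probe set to 7.62 to 15.3 and 12 to 15.3. The part of these differences in the results was not tested.

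Over all 6 arrays, no sterol or fatty acid gene passed the limma test between M5 and SW480. Of the 28 genes, 0 were called higher and 0 lower at an adjusted p of 0.05, and 0 had an unadjusted p under 0.05. The background was low too: of 14243 genes in the fit, 0.133% were called, 0.0702% higher and 0.0632% lower, while 11.5% had an unadjusted p under 0.05. The lowest limma adjusted p among the 28 genes was 0.506, for HSD17B7, and among their 60 probe sets 0 were called, against 0.0732% of all kept probe sets. With M5 replicates 2 and 3 averaged, 0 of the 28 were called, against 0.0281% of all genes, and 0 had an unadjusted p under 0.05, against 5.88%. In simulated data of 6 arrays, adjusted over 32768 probe sets, the 6-array fit recovered 8.96% of 2-fold, 37.3% of 4-fold and 57.6% of 8-fold changes. A change of 2-fold was thus mostly missed there. The simulated noise was independent between arrays and did not copy the likeness of M5 replicates 2 and 3. Fitted changes ran from -0.36 to 0.68 in the sterol branch, with 11 of 16 above 0 and a median of 0.16. In the fatty acid branch they ran from -0.49 to 0.54, with 2 of 7 above 0 and a median of -0.06, and the median over all genes was -0.01.

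The mean level of the sterol branch differed between arrays of the same population. With each gene centred on its own 6-array mean, the sterol branch averaged -0.35, 0.27 and 0.31 (log2) on M5 replicates 1, 2 and 3 and 0.23, -0.06 and -0.40 on SW480 replicates 1, 2 and 3. The mean was thus low on M5 replicate 1 and SW480 replicate 3 and high on M5 replicates 2 and 3 and SW480 replicate 1. Single sterol genes lay on both sides of 0 on every array, from -0.93 to 0.10 on M5 replicate 1 and from -1.11 to 0.70 on SW480 replicate 2. The fatty acid branch averaged -0.09, -0.06 and 0.12 on the M5 arrays and -0.22, 0.46 and -0.22 on the SW480 arrays. Single fatty acid genes ran from -0.62 to 0.64 on M5 replicate 1 and from -1.945 to 0.59 on SW480 replicate 1. The 0.64 and the -1.945 are both FADS2, whose signal on SW480 replicate 1 was 1.60, below the pseudocount. The fatty acid means of these 2 arrays thus lean on a gene near the bottom of the scale. The one high array of the branch, SW480 replicate 2, was an array on which the sterol branch stood near its mean. The sterol mean minus the fatty acid mean was -0.25, 0.33 and 0.19 on the M5 arrays and 0.44, -0.53 and -0.18 on the SW480 arrays, so the populations overlapped in this contrast too. FADS2 enters this contrast as well, and the contrast was not computed without that gene.

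**Figure D2:**
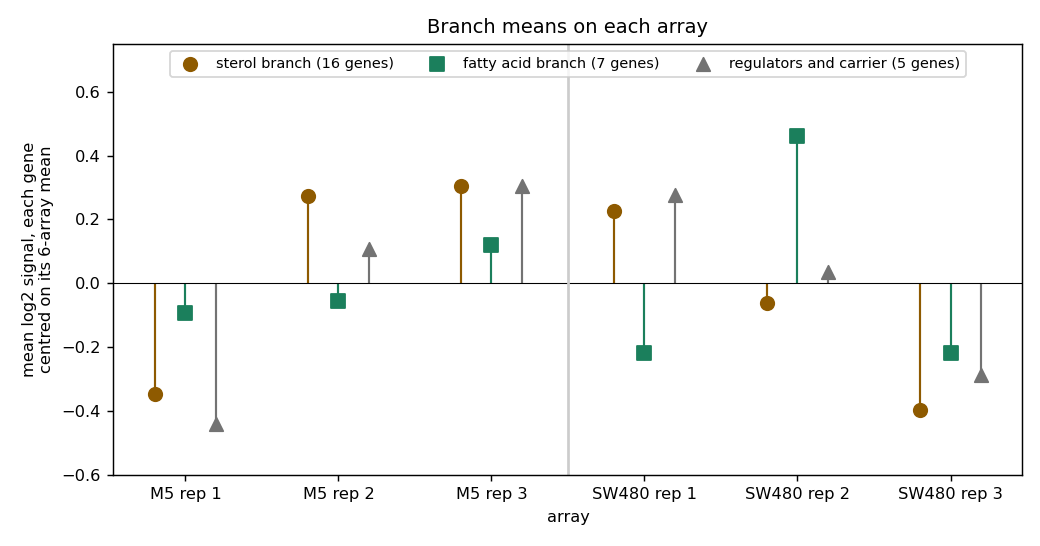
Mean log2 signal (vertical axis, each gene centred on its mean over the 6 arrays) of the sterol branch (16 genes), the fatty acid branch (7) and the regulators and sterol carrier (5) on each array (horizontal axis, M5 then SW480). The sterol branch is low on M5 replicate 1 (-0.35) and SW480 replicate 3 (-0.40), and the fatty acid branch is high on SW480 replicate 2 (0.46).

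For most sterol genes the M5 difference pointed opposite ways in the dimmer and the brighter arrays. On the dimmer arrays 14 of 16 sterol genes were lower in M5, with a median difference of -0.55, and on the brighter arrays 14 of 16 were higher, with a median of 0.52. The same 14 genes (87.5%) did both, against 25.5% of all 14243 genes, whose medians were -0.01 and 0.02. For 10 of 16 the M5 difference was over 1 log2 unit higher on the brighter than on the dimmer arrays, against 16.1% of all genes. By brightest probe sets, 1 of 7 fatty acid genes (14.3%), ACSS2, was lower in M5 on the dimmer and higher on the brighter arrays. The fatty acid medians were -0.14 on both sets of arrays. The sets hold 1 array of each population on the dimmer side. A split by the 18S control signal gave sterol medians of -0.36 within the high arrays (M5 replicate 1, SW480 replicates 1 and 2) and 0.68 within the low arrays, and 13 of 16 genes lower in the first and higher in the second, against 21.2% of all genes. In that split 3 of 7 fatty acid genes did the same, and their medians were -0.21 and 0.34, so the fatty acid branch changed sign there too, unlike in the split by brightness. Brightness and the 18S control part ways on SW480 replicate 2, which was bright with a high 18S signal, and on the other 5 arrays the high 18S arrays were the dim ones. The part of either in the result was not tested.

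**Figure D3:**
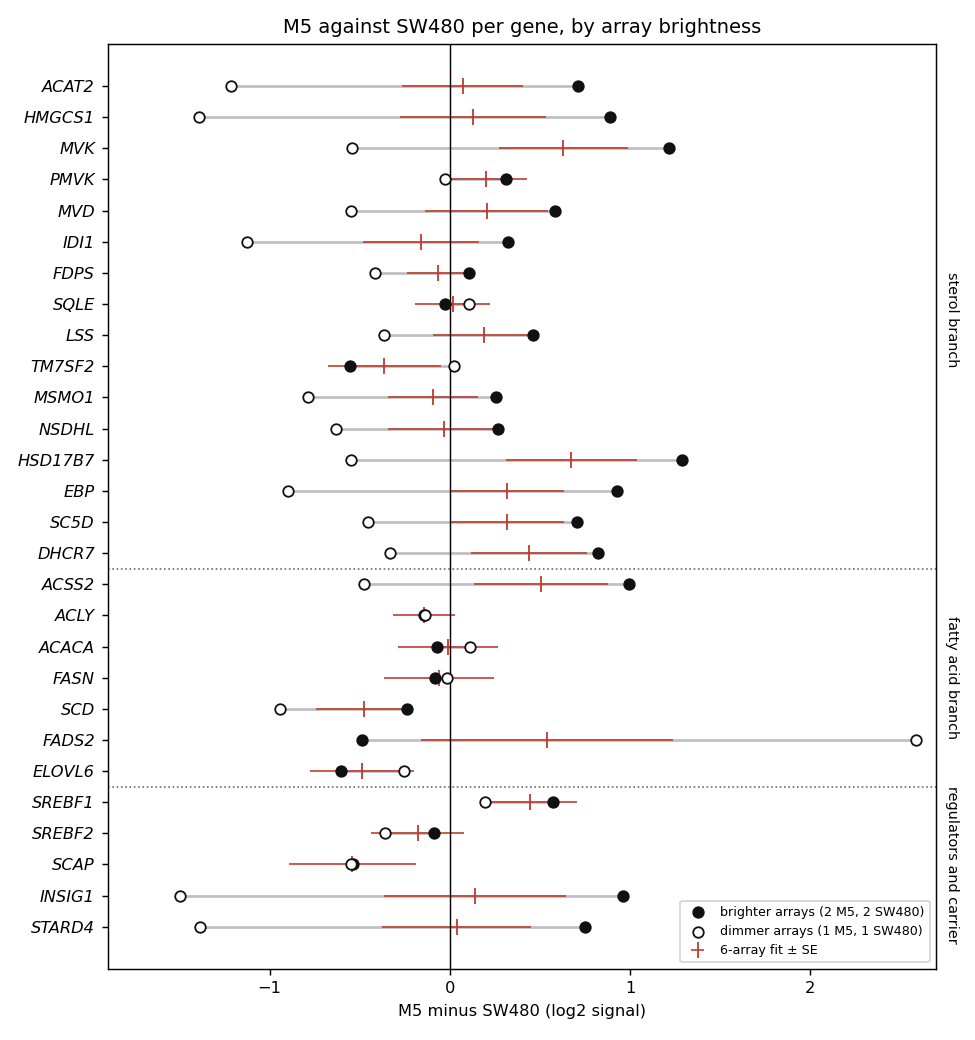
Difference of M5 minus SW480 (log2 signal, horizontal axis) for each of the 28 genes (vertical axis, in pathway order within each branch), on the brighter arrays (filled circles, 2 M5 and 2 SW480), on the dimmer arrays (open circles, 1 and 1) and in the 6-array fit (red mark with its standard error). Open circles lie left of 0 and filled circles right of 0 for 14 of 16 sterol genes and for 1 of 7 fatty acid genes.

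The change of the M5 difference between the 2 sets of arrays was fitted in limma as an interaction of population with brightness, a test added after the pattern had been seen. It called 3 members, all in the sterol branch and all larger on the brighter arrays, ACAT2, HMGCS1 and EBP, which is 3 of 16 against 0.906% of all genes called in that direction and 1.86% in either. Of the 7 fatty acid genes and the 5 regulators and carrier it called 0 and 0, with unadjusted p under 0.05 for 2 and 2, against 9 of 16 sterol genes and 21.5% of all genes. The fit has 1 array of each population on the dimmer side and treats M5 replicates 2 and 3 as separate samples. With those averaged it called 0 members, and 0.0421% of all genes. The fitted gap was above 0 for 14 of 16 sterol genes, with a median of 1.14, values that averaging cannot change.

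The pathway opens with ACAT2, the cytosolic thiolase that joins 2 acetyl-CoA. ACAT2 signal was 156, 369 and 349 on M5 replicates 1, 2 and 3 and 364, 213 and 224 on SW480 replicates 1, 2 and 3. M5 replicate 1 was the lowest of the 6 and SW480 replicate 1 stood with the high M5 arrays, so the populations overlapped. The difference was -1.21 on the dimmer and 0.71 on the brighter arrays, a gap of 1.93 (standard error, SE, 0.27, limma adjusted p = 0.023), while over all 6 arrays it was 0.07 (SE 0.34, limma adjusted p = 0.958).

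HMGCS1, the synthase that makes HMG-CoA, had signals of 131, 403 and 343 on the M5 arrays and 346, 253 and 158 on the SW480 arrays. Its M5 arrays spanned the whole SW480 range. The gap between the array sets was 2.28 (SE 0.41, limma adjusted p = 0.0396), made of -1.39 on the dimmer and 0.89 on the brighter arrays. Its second probe set went the same way, with -1.28 and 0.46.

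The mevalonate steps that follow were less even. MVK, mevalonate kinase, had signals of 77.0, 158 and 199 on the M5 arrays and 113, 85.8 and 66.1 on the SW480 arrays. The populations overlapped only through M5 replicate 1. Its difference was -0.55 on the dimmer and 1.22 on the brighter arrays. Of its 4 probe sets the other 3 were higher in M5 on both sets, so the reversal in MVK rests on 1 probe set. PMVK, phosphomevalonate kinase, hardly varied, with 144, 144 and 145 on the M5 arrays and 147, 121 and 111.7 on the SW480 arrays. MVD, the decarboxylase, had differences of -0.55 on the dimmer and 0.58 on the brighter arrays.

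IDI1, which isomerises isopentenyl diphosphate, was among the brightest sterol genes, at 472, 861 and 1417 on the M5 arrays and 1032, 1026 and 758 on the SW480 arrays. M5 replicate 1 was again the lowest array. Of its 4 probe sets, the 2 bright ones were lower in M5 on the dimmer and higher on the brighter arrays. The 2 dim ones, at 51.5 or less on every array, were not: one went the opposite way (0.55 and -0.87) and the other was higher in M5 on both sets (2.74 and 0.64). FDPS, which makes farnesyl diphosphate, varied little, with 566, 687 and 662 on the M5 arrays and 754, 659 and 593 on the SW480 arrays.

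Past squalene, SQLE, squalene epoxidase, was one of the 2 sterol genes whose difference ran the other way, higher in M5 on the dimmer and lower on the brighter arrays, though only by 0.10 and -0.03. Its signals were 443, 470 and 429 on the M5 arrays and 412, 585 and 359 on the SW480 arrays, and the M5 arrays lay inside the SW480 range. Of the 4 SQLE probe sets, 1 dim one reversed like most of the branch (-0.735 and 0.669). The others, apart from the brightest, were higher in M5 on both sets of arrays (0.660 and 0.852, 0.641 and 0.311). LSS, lanosterol synthase, had 204, 229 and 262 on the M5 arrays and 263, 241 and 130 on the SW480 arrays. Its differences were -0.36 on the dimmer and 0.46 on the brighter arrays. Of its 3 probe sets 2 reversed, and a dim one was higher in M5 on both sets (0.59 and 1.16).

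TM7SF2, a sterol C14 reductase, was the other exception, at 59.9, 74.7 and 58.6 on the M5 arrays and 59.0, 119 and 80.6 on the SW480 arrays, with differences of 0.02 and -0.56. MSMO1, the C4 methyl oxidase, had 906, 1036 and 1024 on the M5 arrays and 1567, 1059 and 704 on the SW480 arrays. SW480 replicates 1 and 3 bracketed all the M5 arrays for this gene. NSDHL, which acts in the same demethylation, had differences of -0.63 and 0.27. Its second probe set did not reverse and was higher in M5 on both sets of arrays (0.20 and 0.23).

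HSD17B7, a 3-ketosteroid reductase of the demethylation complex, had the largest fitted change in the branch and is named for it by rule. Its signals were 173, 294 and 244 on the M5 arrays and 254, 84.0 and 140 on the SW480 arrays. SW480 replicate 1 stood above 2 of the 3 M5 arrays. The mean was 221 ± 68.0 in M5 (SD, n = 2) and 159 ± 86.3 in SW480 (SD, n = 3), and the fitted change was 0.68 (SE 0.36, limma adjusted p = 0.506).

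EBP, the sterol isomerase, had signals of 227, 487 and 474 on the M5 arrays and 426, 242 and 262 on the SW480 arrays. All 4 of its probe sets were lower in M5 on the dimmer arrays and higher on the brighter arrays. The gap for the brightest was 1.83 (SE 0.26, limma adjusted p = 0.023), while over 6 arrays the fitted change was 0.32 (SE 0.32, limma adjusted p = 0.747). SC5D, the C5 desaturase, had 247, 650 and 586 on the M5 arrays and 340, 371 and 384 on the SW480 arrays, so SW480 was steady and M5 lay on both sides of it. A dim second SC5D probe set was lower in M5 on both sets of arrays (-1.57 and -0.23). DHCR7, the last reductase, had 193, 291 and 319 on the M5 arrays and 244, 256 and 114 on the SW480 arrays.

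Across the branch, M5 replicate 1 was the lowest of the 3 M5 arrays for 12 of 16 sterol genes (75%), 4 of 7 fatty acid genes (57.1%) and 42.8% of all genes. It was the lowest of all 6 arrays for 6 sterol genes (37.5%), 3 fatty acid genes (42.9%) and 17.9% of all genes. In M5 the sterol median of replicates 2 and 3 minus replicate 1 was 0.59 on the log2 scale, and in SW480 it was -0.57, against 0.01 and 0.00 over all genes. Counting probe sets rather than genes, 22 of 34 kept sterol probe sets were lower in M5 on the dimmer and higher on the brighter arrays, as were 5 of 16 fatty acid probe sets and 24.5% of all 32768.

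**Figure D4:**
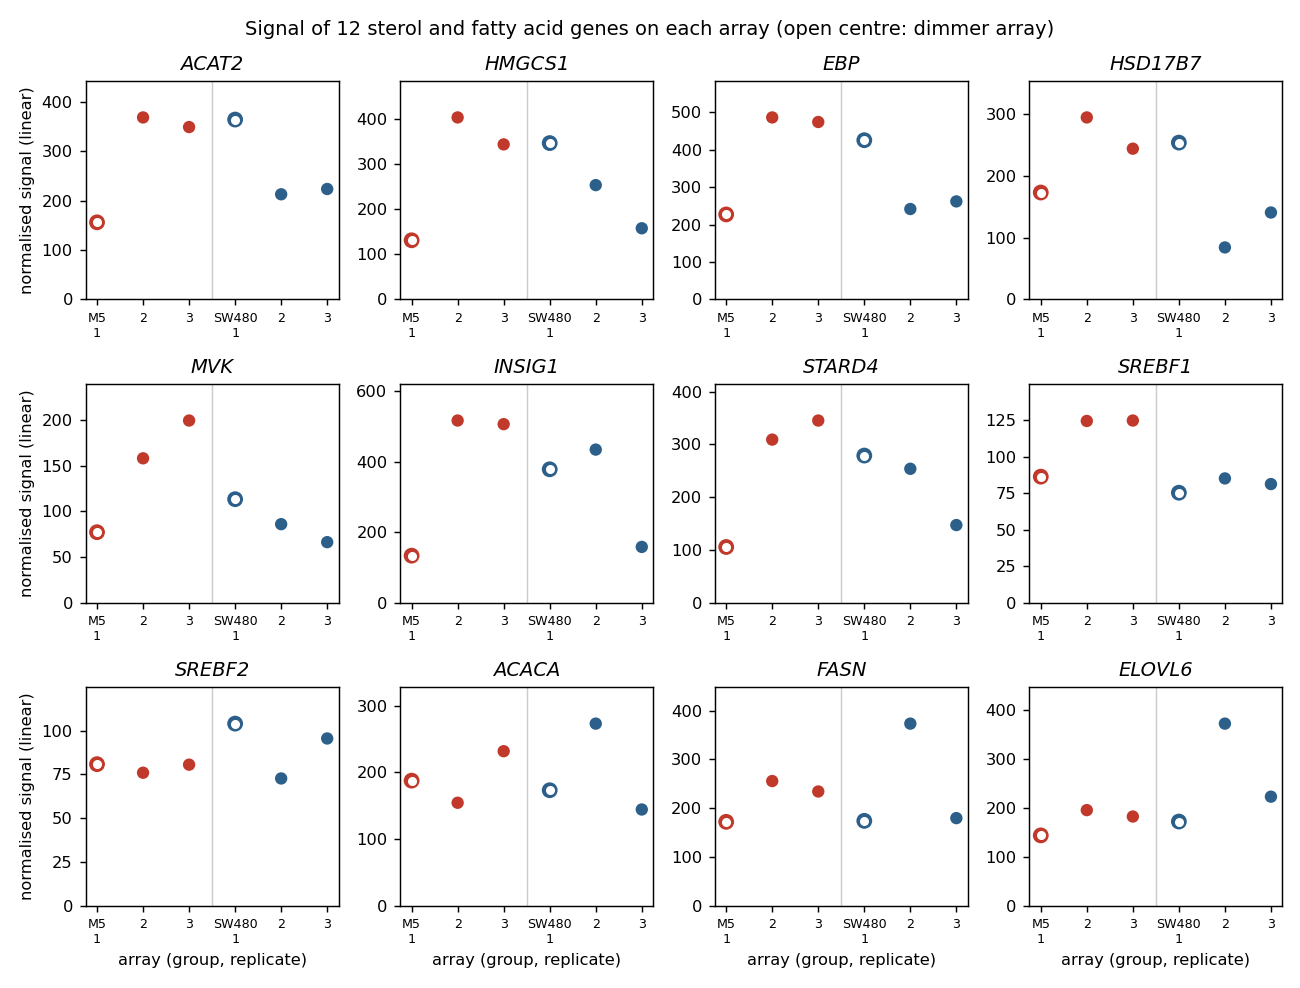
Normalised signal (linear scale from 0, vertical axis) of 12 genes on each of the 6 arrays (horizontal axis, M5 in red then SW480 in blue), with the dimmer array of each population drawn with an open centre. M5 replicate 1 is low and SW480 replicate 1 high for ACAT2 (156 and 364), HMGCS1 (131 and 346), INSIG1 (133 and 378) and STARD4 (105 and 279), while FASN (172 and 174) and ACACA (188 and 173) differ little between these arrays. SCD, a fatty acid gene not drawn here, was also lower on M5 replicate 1 (1086) than on SW480 replicate 1 (2092).

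Among the regulators, INSIG1, whose product holds SCAP in the endoplasmic reticulum and whose gene is itself an SREBP target, was also lower in M5 on the dimmer and higher on the brighter arrays. Its signals were 133, 516 and 506 on the M5 arrays and 378, 434 and 158 on the SW480 arrays. The low arrays, M5 replicate 1 and SW480 replicate 3, were those on which the sterol branch was low. The group means were 322 ± 268 in M5 (SD, n = 2) and 323 ± 146 in SW480 (SD, n = 3). All 3 INSIG1 probe sets reversed, with -1.50 on the dimmer and 0.96 on the brighter arrays for the brightest, and the gap of 2.46 (SE 0.68) had a limma adjusted p of 0.101.

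STARD4, a carrier that moves cholesterol between membranes, had 105, 309 and 345 on the M5 arrays and 279, 254 and 147 on the SW480 arrays. Its gap of 2.14 (SE 0.44) had a limma adjusted p of 0.0555. The order of its arrays followed that of HMGCS1 at the low end, with M5 replicate 1 lowest and SW480 replicate 3 next.

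SREBF1 was the only one of the 28 genes whose populations did not overlap by its brightest probe set. Its signals were 86.4, 125 and 125 on the M5 arrays and 75.4, 85.2 and 81.3 on the SW480 arrays, so every M5 array lay above every SW480 array, with M5 replicate 1 close to SW480 replicate 2. Of all genes, 7.74% had M5 above SW480 without overlap and 8.36% had M5 below. The fitted change was 0.45 (SE 0.26, limma adjusted p = 0.544), and a dim second probe set, at 1.97 to 16.6 on M5 and 4.32 to 17.3 on SW480 arrays, pointed down (-0.70).

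SREBF2 was steadier, at 80.9, 76.0 and 80.6 on the M5 arrays and 104, 72.7 and 95.6 on the SW480 arrays. Its fitted change was -0.18 (SE 0.26, limma adjusted p = 0.837), and its 3 probe sets disagreed in sign. SCAP, the escort that carries SREBPs to the Golgi, had 115, 50.3 and 86.4 on the M5 arrays and 168, 86.6 and 108 on the SW480 arrays. Its difference was -0.55 on the dimmer and -0.54 on the brighter arrays (fitted -0.54, SE 0.35, limma adjusted p = 0.593).

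In the fatty acid branch, ACSS2 makes cytosolic acetyl-CoA from acetate. By brightest probe sets it alone of the branch was lower in M5 on the dimmer and higher on the brighter arrays. Its signals were 83.4, 90.8 and 102 on the M5 arrays and 116, 59.3 and 38.0 on the SW480 arrays, with differences of -0.47 and 0.99. ACLY, which makes acetyl-CoA from citrate, was the steadiest of the branch, at 720, 610 and 593 on the M5 arrays and 793, 696 and 634 on the SW480 arrays. Its differences were -0.14 on both sets of arrays. A dimmer ACLY probe set was lower in M5 on the dimmer and higher on the brighter arrays (-0.32 and 0.14). The remaining one was lower on both (-0.13 and -0.02).

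ACACA, the carboxylase that commits acetyl-CoA to fatty acids, had 188, 154 and 232 on the M5 arrays and 173, 273 and 144 on the SW480 arrays. FASN, fatty acid synthase, had 172, 256 and 234 on the M5 arrays and 174, 374 and 180 on the SW480 arrays. For both genes SW480 replicate 2 was the highest array, and the dimmer arrays differed by 0.11 for ACACA and -0.02 for FASN. A second ACACA probe set, at 73.3 to 105 on M5 and 42.8 to 75.4 on SW480 arrays, was higher in M5 on both sets (0.13 and 0.83). Its fitted change was 0.60 (adjusted p = 0.539 over probe sets in limma), where the brightest ACACA probe set had -0.01. A dim second FASN probe set, at 14.6 to 23.9 on M5 and 0.87 to 7.03 on SW480 arrays, did not overlap between the populations and had a change of 1.81 (adjusted p = 0.387 over probe sets in limma), where the bright one had -0.06.

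The elongase ELOVL6 and the desaturase SCD had the most negative fitted changes of the branch. ELOVL6 signals were 144, 195 and 182 on the M5 arrays and 172, 372 and 223 on the SW480 arrays, a change of -0.49 (SE 0.29, limma adjusted p = 0.553). All 3 of its probe sets were lower in M5 on both sets of arrays. The 2 dimmer ones did not overlap between the populations (-0.40 and -0.81). Of all genes, by their brightest probe set, 8.36% had M5 below SW480 without overlap. The share over all probe sets was not computed. SCD, which makes oleate, was the brightest gene of the set, at 1086, 1527 and 1717 on the M5 arrays and 2092, 2862 and 1279 on the SW480 arrays, a change of -0.47 (SE 0.27, limma adjusted p = 0.534). The SCD difference was -0.945 on the dimmer and -0.24 on the brighter arrays.

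The other 3 SCD probe sets, all dimmer, were lower in M5 on the dimmer and higher on the brighter arrays, so the direction for SCD depends on the probe set. FADS2, the first desaturase of polyunsaturated fatty acids, was near the bottom of the scale at 18.2, 9.32 and 14.7 on the M5 arrays and 1.60, 18.2 and 16.2 on the SW480 arrays. Its change of 0.54 (SE 0.70, limma adjusted p = 0.815) came with 1 SW480 array below the pseudocount and sets no firm fold. With a gene taken as the mean of all its kept probe sets, the fatty acid median over 6 arrays was 0.29, above the sterol median of 0.19, and the gap between the array sets was above 0 for 6 of 7 fatty acid genes. Its median was then 0.18, against 0.89 in the sterol branch.

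When the comparison was limited to the 4 brighter arrays, limma called 6 of 16 sterol genes and 1 of 7 fatty acid genes higher in M5 and 0 lower, against 5.06% of all genes higher and 6.35% lower. The sterol genes were ACAT2, HMGCS1, MVK, HSD17B7, EBP and SC5D, with differences of 0.71 to 1.29 and adjusted p of 0.00664 to 0.039 in limma, and the fatty acid gene was ACSS2 (0.99, limma adjusted p = 0.0456). On these arrays, averaging M5 replicates 2 and 3 left 0 of the 28 called in limma, against 2.05% of all genes, and 7 had an unadjusted p under 0.05, against 14.2%. The lone M5 sample is then assumed to vary like SW480 replicates 2 and 3.

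Other genes of lipid supply and sterol handling were taken from a separate list. Of 39 measured in a list of 42, limma called 0 higher and 0 lower over 6 arrays, and 11 (28.2%) were lower in M5 on the dimmer and higher on the brighter arrays, against 25.5% of all genes. ACSL5, an acyl-CoA synthetase of the intestinal epithelium, had the largest change. Its signals were 439, 332 and 340 on the M5 arrays and 686, 1306 and 1112 on the SW480 arrays, so every M5 array was below every SW480 array, and the change of -1.44 (SE 0.24) had a limma adjusted p of 0.0502. The call depended on the setting: the limma adjusted p was 0.0337 with the dim-array block, 0.0258 with no filter and 0.0414 with 4 times the pseudocount, but 0.322 with M5 replicates 2 and 3 averaged, 0.459 without the trend, 0.544 with median centring and 1 without scaling. It was 0.0737 with the replicate block and 0.103 with the 18S block, and ran from 0.00426 to 0.307 with 1 array left out.

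NCEH1, a cholesteryl ester hydrolase, had 40.4, 75.5 and 93.0 on the M5 arrays and 17.6, 27.7 and 34.9 on the SW480 arrays, without overlap, and a change of 1.30 (SE 0.40, limma adjusted p = 0.287). GPAM, which starts glycerolipid synthesis, had 44.1, 43.2 and 49.7 on the M5 arrays and 49.0, 126 and 117 on the SW480 arrays (-0.95, SE 0.37, limma adjusted p = 0.38). The populations overlapped through SW480 replicate 1. MLXIPL, the glucose-responsive regulator of lipogenesis, was dim, at 33.4, 14.6 and 23.7 on the M5 arrays and 2.72, 7.83 and 17.8 on the SW480 arrays (1.38, SE 0.60, limma adjusted p = 0.412).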

How the data were processed

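Total RNA of 3 M5 and 3 SW480 samples was hybridised to Affymetrix arrays. The authors deposited linear intensities per probe set, made with GCOS 1.4 per the submitters' processing notes. How they scaled the arrays is not stated, and no detection calls were used. The number of arrays limits the precision, and p-values measure only the spread between these arrays, which may be technical.

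Control probe sets (62) were dropped. Trimmed mean intensity spanned a 4.13-fold range across arrays, so the other 54613 probe sets were quantile normalised and log2(signal + 1.7) was taken, 1.7 being the level below which 20% of all values lay. Of these, 41091 have 1 gene symbol, 1801 several and 11721 none, and 41037 matched RefSeq by gene ID. M5 was compared with SW480 in limma 3.58.1 (R 4.3.3, lmFit and eBayes with intensity trend, two-sided, Benjamini-Hochberg) on the 32768 kept probe sets. A gene's value is that of its brightest kept probe set, adjusted over 14243 genes. The members and lists were chosen with earlier results of these data known, and the interaction fit was added after its pattern had been seen. Genes named by rule were those called, those without overlap, the 3 largest changes of each branch, all 5 regulators and carrier, and, of the other pathway genes, the 4 largest changes. Further members were added. Both fits were tested on simulated data: the interaction recovered 0% of 2-fold, 1.49% of 4-fold and 18.2% of 8-fold changes. Figures were drawn with matplotlib 3.10.9.

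Both populations carry replicate numbers 1 to 3, and the main fit took the samples as unpaired. Same-numbered samples' deviations had correlations of 0.11, 0.02 and 0.07, against -0.11 to 0.08 for differently numbered samples. The highest was that of the 2 replicate 1 arrays, which are the dimmer arrays. Whether these 2 arrays shared a batch was not tested.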

Additional observations from a re-analysis of the deposited data

Results flagged for a closer look

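The M5 difference changed between the dimmer and the brighter arrays beyond the limma threshold for 3 sterol genes and for 1 gene of the wider list. The fitted gap, brighter minus dimmer, was 1.93 for ACAT2, 2.28 for HMGCS1 and 1.83 for EBP, and 1.39 for NPC2, a lysosomal cholesterol carrier. NPC2 signals were 740, 1082 and 1196 on the M5 arrays and 1365, 827 and 773 on the SW480 arrays, with a limma adjusted p of 0.0306 for the gap (SE 0.22). Each gap rests on 1 dimmer array of each population, in a fit added after the pattern had been seen. With M5 replicates 2 and 3 averaged, none of ACAT2, HMGCS1 and EBP was called, and 0.0421% of all genes were.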

How the results depend on the processing

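Over 6 arrays no member was called with other scaling, another pseudocount, filter or variance model, the replicate, dim-array or 18S block, M5 replicates 2 and 3 averaged, or the mean of all kept probe sets, nor with any 1 array left out. Without scaling the median of all genes was 0.07 and the interaction median of all genes -0.34, to be read beside sterol medians of 0.22 and 0.73. Without the dimmer pair, where 11.4% of all genes were called in either direction, 7 members and 10 of their probe sets were higher. There 3 other pathway genes were higher and 4 lower, with a sterol median of 0.52 and a branch difference of 0.67. These medians were the same with M5 replicates 2 and 3 also averaged, and 1 other pathway gene was lower. Array weights gave 2 members, 3 probe sets and 2 other pathway genes higher and 4 lower, against 8.79% of all genes called in either direction. With 4 times the pseudocount, no filter or the dim-array block, 1 other pathway gene was lower, against 0.172% to 0.449% of all genes called. Leaving out 1 array gave 0 to 2 other pathway genes lower, against 0.014% to 1.81% of all genes called in either direction. Sterol medians were then -0.08 to 0.33, fatty acid medians -0.25 to 0.25 and branch differences -0.08 (without SW480 replicate 2) to 0.56. The fatty acid median was 0.25 without SW480 replicate 2 and the sterol median -0.08 without SW480 replicate 3. The mean of all kept probe sets gave a fatty acid median of 0.29 and a branch difference of -0.11, opposite in sign to the 0.22 reported. Leaving ACSS2 and ACLY out of the fatty acid branch kept its median at -0.06.

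The interaction called 3 members, but 0 without scaling, with median centring, without the limma trend or with M5 replicates 2 and 3 averaged, and 1 with the mean of all kept probe sets. Leaving out 1 brighter array gave 0 to 15 members: 0 without M5 replicate 2 or 3, 15 without SW480 replicate 2 and 10 without SW480 replicate 3, where 12% and 15.8% of all genes were called. The replicate block changed no call among the members (lowest limma adjusted p 0.427). What caused the shifts above was not tested. Over all genes limma called 19, but 1625 without the dimmer pair, 1252 with array weights, 258 without M5 replicate 1, 159 without SW480 replicate 1, 64 with the dim-array block, 34 with no filter, 9 without scaling or with median centring, 2 to 7 without any other 1 array, 4 with M5 replicates 2 and 3 averaged, and 0 without the trend (1184 at an unadjusted p under 0.05). Without detection calls, signals near the pseudocount set no firm fold.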
